A study of Mus musculus with 10 samples.

Results

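The 4 genes described here are Chrm2 and Chrm3, which encode the M2 and M3 muscarinic acetylcholine receptors, and Ache and Bche, which encode acetylcholinesterase and butyrylcholinesterase. They were chosen by gene name, as genes through which cells of the gut wall could receive and clear acetylcholine. All 4 were listed in each of the 3 deposited transcript tables, and they account for 4 of the 19214 gene symbols and 21 of the 76879 transcript variants in those tables. The study profiled polyadenylated RNA of the mouse jejunum and colon in 10 sequencing libraries, 1 library per condition.

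All animals were C57BL/6 mice aged 4 weeks that carried 1 copy of a fluorescent reporter. Jejunal and colonic smooth muscle cells (JSMCs and CSMCs) were sorted from smMHCCre-eGFP/+ mice, in which the Myh11 promoter drives Cre and eGFP. Interstitial cells of Cajal (ICC) of both organs were sorted from KitcopGFP/+ mice, whose reporter sits at the Kit locus. PDGFRα+ cells of the jejunal and colonic muscle and of the colonic mucosa were sorted from PdgfraeGFP/+ mice, whose reporter sits at the Pdgfra locus. Unsorted jejunal and colonic smooth muscle (SM) tissue was labelled KitcopGFP/+, and unsorted colonic mucosa was labelled PdgfraeGFP/+. The SMCs of many mice were pooled into a single RNA sample per organ, so no value below has a replicate, an error or a test. The labels and the study's methods differ on the SM tissue, which the methods tie to the smMHCCre-eGFP/+ mice that gave the SMCs, and the labels are followed here. By the labels, SM tissue shares its strain with ICC alone, so strain and cell type or sorting cannot be told apart in any ratio of SMCs or PDGFRα+ cells to SM tissue, nor between SMCs, ICC and PDGFRα+ cells.

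Acetylcholine released by enteric motor neurons is the main excitatory transmitter of gut muscle. The M3 receptor couples to Gq proteins and phospholipase C, which release calcium from internal stores, while the M2 receptor couples to Gi proteins, which lower cyclic AMP. Both receptors are known from visceral smooth muscle, where M2 is the more numerous and M3 the one that drives most of the contraction. Acetylcholinesterase hydrolyses acetylcholine with high specificity and is held at synapses and cell surfaces by anchoring proteins, and butyrylcholinesterase hydrolyses a broader range of choline esters.

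The labels were checked against marker genes. Kit stood at 468 FPKM (fragments scaled to transcript length and to the mapped fragments of the library) in jejunal ICC and 792 FPKM in colonic ICC, against 29.4 and 41.4 FPKM in the SM tissues, and Myh11 stood at 3773 FPKM in JSMCs and at 3807 FPKM in CSMCs. Pdgfra stood at 230 FPKM in colonic PDGFRα+ cells and 228 FPKM in mucosal PDGFRα+ cells. In the library labelled jejunal PDGFRα+ cells, Pdgfra stood at 34.0 FPKM, below the 57.0 FPKM of jejunal SM tissue, and the 8 enteric neuron markers lay between 55.9% and 185% of their tissue levels. That library is therefore named by its label throughout, and results that rest on it are given apart. The mucosal PDGFRα+ library held Epcam, an epithelial marker, at 144 FPKM.

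Chrm2 and Bche varied together across the libraries and Ache did not, and the RefSeq promoters of these 3 genes are shown for that reason. Each window covers the 250 bases before the RefSeq start site on the gene's strand, with GC boxes (GGGCGG on either strand, overlapping matches included) in capitals. The windows were taken from the GRCm38.p6 annotation. Each matched 1 place on its own chromosome and strand in mm9, the build of the tables, at the coordinates given. Other chromosomes were not searched. Chrm2 lies at chr6:36337834-36338083 on the plus strand, Bche at chr3:73512338-73512587 on the minus strand and Ache at chr5:137729232-137729481 on the plus strand.
Chrm2: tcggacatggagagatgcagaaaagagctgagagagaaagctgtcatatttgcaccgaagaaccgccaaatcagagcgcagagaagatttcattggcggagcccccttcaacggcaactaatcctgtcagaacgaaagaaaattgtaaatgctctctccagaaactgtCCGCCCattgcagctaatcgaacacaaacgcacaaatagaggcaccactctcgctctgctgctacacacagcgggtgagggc
Bche: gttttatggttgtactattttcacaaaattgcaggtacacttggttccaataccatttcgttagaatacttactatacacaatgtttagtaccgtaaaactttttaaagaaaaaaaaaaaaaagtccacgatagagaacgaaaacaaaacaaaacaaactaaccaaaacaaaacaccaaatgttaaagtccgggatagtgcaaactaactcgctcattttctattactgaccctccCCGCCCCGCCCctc
Ache: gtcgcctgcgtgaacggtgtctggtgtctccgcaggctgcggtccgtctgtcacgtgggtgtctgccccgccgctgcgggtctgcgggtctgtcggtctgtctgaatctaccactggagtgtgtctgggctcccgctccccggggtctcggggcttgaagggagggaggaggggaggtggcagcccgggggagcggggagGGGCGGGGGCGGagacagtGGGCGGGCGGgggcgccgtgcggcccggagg
The Chrm2 window held 1 GC box. It covers 1 RefSeq start, whereas the assembled Chrm2 variants came from 9 start sites, so not all of its starts are shown. The Bche window held 2 overlapping GC boxes and 35.6% G and C bases. The Ache window held 4 GC boxes, some of them overlapping, and 73.6% G and C bases, while the Chrm3 window, at 61.2% G and C bases, held 0. Of 32851 mouse promoter windows of this length, 32.7% held a GC box and 1.47% held a strict CArG box, the element bound by serum response factor. None of the 4 windows held a CArG box, which says only that its letters are not in these stretches.

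Chrm2 was the most abundant of the 4 transcripts in both SMC libraries and both SM tissues. Its level was 118.8 FPKM in jejunal SM tissue, 115.8 FPKM in JSMCs, 13.0 FPKM in jejunal ICC and 40.1 FPKM in the library labelled jejunal PDGFRα+ cells. In the colon its level was 46.7 FPKM in SM tissue, 61.2 FPKM in CSMCs, 2.26 FPKM in ICC and 1.44 FPKM in PDGFRα+ cells. The M2 receptor transcript was thus high wherever muscle cells were abundant, and it was near the bottom of the range in colonic interstitial cells. Whole colonic mucosa held 0.237 FPKM, and in mucosal PDGFRα+ cells the gene was listed at 0. For the mucosal libraries 2 Chrm2 variants were listed and the known transcript was not. The mucosal and muscle values thus rest on different sets of variants. Ranked within each library, Chrm2 was gene number 453 in JSMCs and 806 in CSMCs, but 10498 in colonic ICC and 10802 in colonic PDGFRα+ cells.

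Chrm3 had a different order. Its level was 2.68 FPKM in jejunal SM tissue, 5.20 FPKM in JSMCs, 8.59 FPKM in jejunal ICC and 2.15 FPKM in the library labelled jejunal PDGFRα+ cells. In the colon it was 5.75 FPKM in SM tissue, 4.79 FPKM in CSMCs, 31.8 FPKM in ICC and 0.502 FPKM in PDGFRα+ cells. Both ICC libraries stood above every other library, with colonic ICC 3.70-fold above jejunal ICC and jejunal ICC 1.49-fold above colonic SM tissue, the next in order. The levels of colonic SM tissue, JSMCs and CSMCs lay within 1.20-fold of each other, and without replicates these neighbours cannot be ranked. Colonic mucosa held 1.33 FPKM and mucosal PDGFRα+ cells held 0.208 FPKM.

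Ache was low in SMCs and high in tissue and ICC. Its level was 21.1 FPKM in jejunal SM tissue, 2.48 FPKM in JSMCs, 42.6 FPKM in jejunal ICC and 29.7 FPKM in the library labelled jejunal PDGFRα+ cells. In the colon it was 29.9 FPKM in SM tissue, 3.16 FPKM in CSMCs, 16.7 FPKM in ICC and 5.19 FPKM in PDGFRα+ cells. The JSMC and CSMC levels were the lowest of the 8 muscle-layer libraries. Colonic mucosa held 1.55 FPKM and mucosal PDGFRα+ cells 1.72 FPKM, but these values came from other transcript variants than the muscle values, as described with the variants.

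Bche followed the order of Chrm2 rather than that of Ache. Its level was 57.3 FPKM in jejunal SM tissue, 62.5 FPKM in JSMCs, 5.19 FPKM in jejunal ICC and 19.7 FPKM in the library labelled jejunal PDGFRα+ cells. In the colon it was 28.4 FPKM in SM tissue, 39.2 FPKM in CSMCs, 2.20 FPKM in ICC and 1.44 FPKM in PDGFRα+ cells. SMCs and SM tissue were high and the sorted interstitial cells were low in both organs. Whole mucosa held 6.20 FPKM of Bche and mucosal PDGFRα+ cells 1.28 FPKM.

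**Figure D1:**
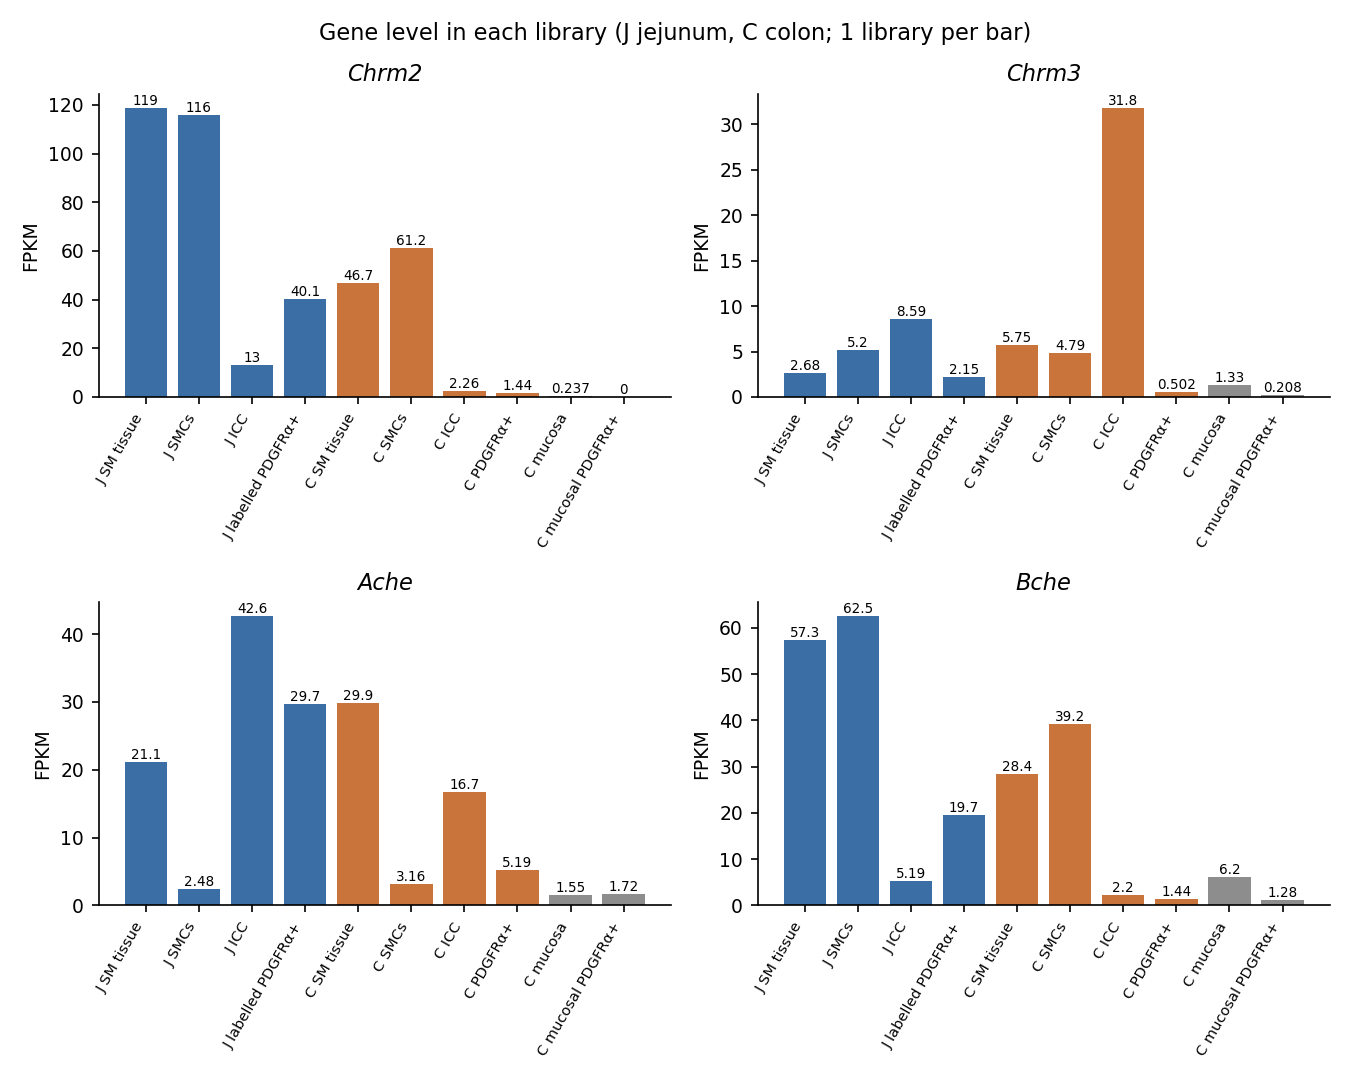
Level of each gene in FPKM (vertical axis, starting at 0, a separate scale for each gene) in the 10 libraries (horizontal axis); each bar is 1 library, so there is no error bar, and blue marks jejunal, orange colonic muscle and grey colonic mucosal libraries. Chrm2 and Bche are tall in SMCs and SM tissue, Chrm3 is tallest in colonic ICC at 31.8 FPKM, and Ache is tallest in jejunal ICC at 42.6 FPKM and low in both SMC libraries.

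Since FPKM is scaled by transcript length, levels of the receptors can be set against each other within a library. Chrm2 exceeded Chrm3 22.3-fold in JSMCs and 12.8-fold in CSMCs, and 44.3-fold and 8.12-fold in jejunal and colonic SM tissue. In jejunal ICC the ratio was 1.51, and in colonic ICC the order turned, with Chrm3 14.1-fold above Chrm2. Colonic PDGFRα+ cells had a ratio of 2.88, on levels of at most 1.44 FPKM, and the library labelled jejunal PDGFRα+ cells had a ratio of 18.6. The enzymes showed the same kind of turn. Bche exceeded Ache 25.2-fold in JSMCs and 12.4-fold in CSMCs, whereas Ache exceeded Bche 8.21-fold in jejunal ICC and 7.60-fold in colonic ICC. In SM tissue Bche was 2.71-fold above Ache in the jejunum, and in the colon the ratio of Bche to Ache was 0.950.

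Sorted cells were then compared with SM tissue of the same organ, on the log2 scale after adding 1 FPKM to each level. This scale understates changes of low genes. A gene was called higher or lower when the levels so adjusted were at least 4-fold apart, and the share of all measured genes called in this way is given as the background. The 3 sorted libraries of an organ share its single tissue library. The median log2 ratio of all genes ranged with the comparison. Rescaling the libraries moved it by -0.31 to 0.33 (TPM, levels scaled to an equal total per library) or by -0.26 to 0.47 (median ratio over all 10 libraries). TPM values are larger numbers than FPKM values here. The 1 added to each level was kept in TPM, so it weighs less there than 1 FPKM does. For the single ratios below, median-ratio scaling was done within each transcript table, and over all 10 libraries for ratios across tables.

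In JSMCs, 0 of 4 genes were higher and 1, Ache, was lower than in jejunal SM tissue, where 0.297% of 12460 genes were called higher and 3.48% lower. The Ache log2 ratio was -2.67, an 8.52-fold difference in level. Chrm3 had a log2 ratio of 0.75 and stayed inside 4-fold. The Chrm2 log2 ratio was -0.04, which turned to 0.18 under median-ratio scaling and to 0.40 when only the known transcript was counted. The Bche log2 ratio was 0.12, which turned to -0.02 in TPM.

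In CSMCs the count was the same, 0 higher and 1 lower, against a background of 0.149% higher and 5.3% lower. Ache was again the gene called, with a log2 ratio of -2.89 and a 9.44-fold lower level than in colonic SM tissue. The log2 ratios of Chrm2 and Bche were 0.38 and 0.45, and the Chrm2 value became 1.03 with the known transcript alone. For Chrm3 the log2 ratio was -0.22, which turned to 0.17 under median-ratio scaling and to 0.03 with the known transcript alone. Ache was therefore the 1 gene of the 4 called between SMCs and SM tissue, in both organs.

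The 8 markers of enteric neurons moved in the same direction as Ache in these comparisons. All 8 were listed, none was at 0 in a muscle-layer library, and their summed level was 320.4 FPKM in jejunal SM tissue, 21.4 FPKM in JSMCs, 436 FPKM in colonic SM tissue and 33.9 FPKM in CSMCs. The single markers kept between 3.91% and 9.44% of their tissue level in JSMCs and between 4.93% and 9.86% in CSMCs, and Ache kept 11.7% and 10.6%. Markers of other cell types fell short of tissue in SMCs as well. The summed level of 5 ICC markers was 179.7 FPKM in jejunal SM tissue and 16.8 FPKM in JSMCs, and 179.9 FPKM in colonic SM tissue and 14.1 FPKM in CSMCs. For 5 enteric glia markers the sums were 45.1 and 6.92 FPKM in the jejunum and 75.1 and 8.63 FPKM in the colon, and for 3 mesothelial markers they were 214.7 and 12.9 FPKM and 113.8 and 5.38 FPKM. None of these markers was at 0 in these 4 libraries. The part of RNA from neurons, ICC, glia or mesothelium in the Ache ratio was not tested. Fewer cells of a type and less RNA per cell cannot be told apart in bulk libraries.

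In jejunal ICC, 0 of 4 genes were called higher and 2, Chrm2 and Bche, lower than in tissue, against a background of 1.62% higher and 2.72% lower. Chrm2 was 9.14-fold lower (log2 ratio -3.10) and Bche 11.04-fold lower (log2 ratio -3.24). Chrm3 and Ache had log2 ratios of 1.38 and 0.98, inside 4-fold. In colonic ICC, 1 gene, Chrm3, was called higher and 2, Chrm2 and Bche, lower, against 1.43% and 4.4% of all genes. Chrm3 was 5.53-fold higher (log2 ratio 2.28), Chrm2 20.6-fold lower (log2 ratio -3.87) and Bche 12.9-fold lower (log2 ratio -3.20). The Ache log2 ratio in colonic ICC was -0.80, opposite in sign to the jejunal one. Counting the known Chrm2 transcript alone brought the Chrm2 log2 ratios to -2.06 in jejunal and -2.27 in colonic ICC.

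Ache kept more of its tissue level in ICC than the neuron markers did. The summed marker level was 74.7 FPKM in jejunal ICC and 56.7 FPKM in colonic ICC, and single markers stood at 14.3% to 45.2% of the tissue level in the jejunum and 8.46% to 37.9% in the colon. Ache stood at 202% and 55.9% of its tissue level, above all 8 markers in both organs.

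In colonic PDGFRα+ cells, all 4 genes were called lower than in SM tissue, against a background of 2.08% higher and 6.18% lower. The log2 ratios were -4.29 for Chrm2, -2.17 for Chrm3, -2.32 for Ache and -3.59 for Bche, and the Chrm3 value moved inside 4-fold, to -1.66, when only its known transcript was counted, while the Chrm2 value became -2.52. The 8 neuron markers, summing to 37.9 FPKM, kept 2.92% to 12.7% of their tissue level in these cells, and Ache kept 17.4%. The known Ache transcript alone stood at 3.38 FPKM there and 28.9 FPKM in colonic SM tissue, a share inside the marker range. In the library labelled jejunal PDGFRα+ cells, 0 of 4 genes were called in either direction (background 0.913% higher and 0.14% lower), with log2 ratios of -1.54 for Chrm2, -0.22 for Chrm3, 0.47 for Ache and -1.50 for Bche. With known transcripts alone, Bche passed the limit there, at -2.29, and Chrm2 came to -0.16. Its neuron markers summed to 415 FPKM, above the jejunal tissue.

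**Figure D2:**
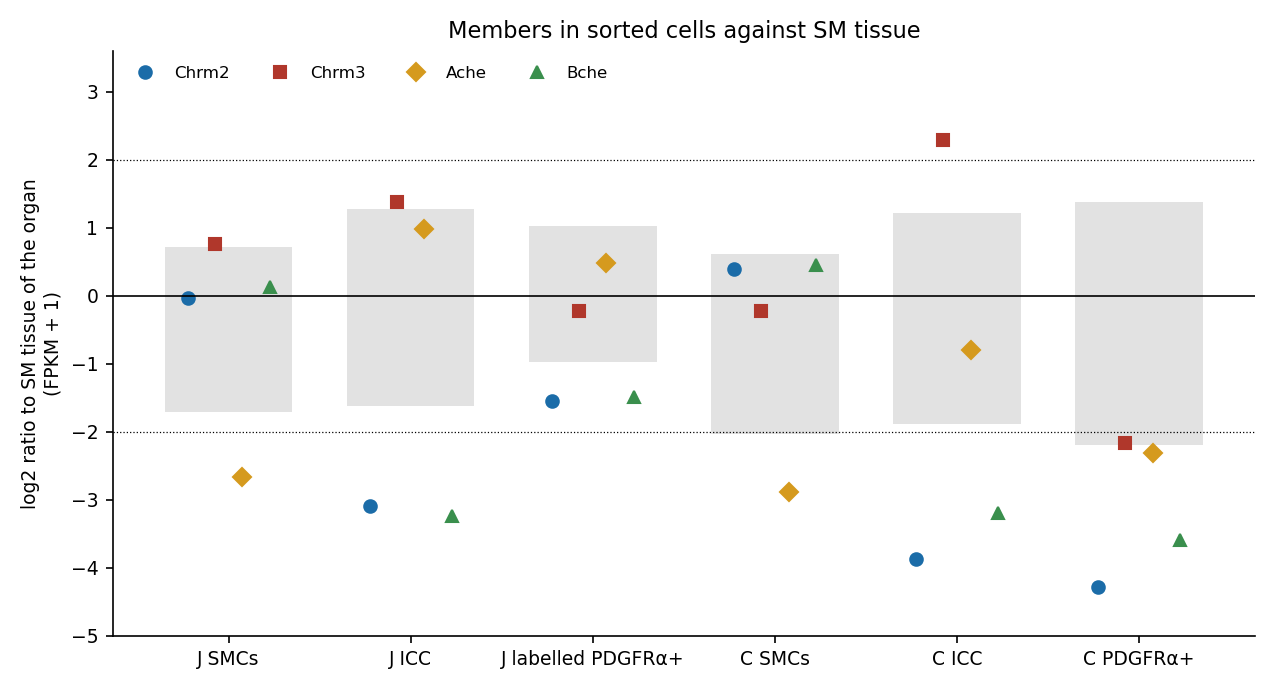
Log2 ratio of FPKM + 1 in each sorted library to SM tissue of its organ (vertical axis) for the 4 genes (symbols, 1 library per point); grey bars span the 5th to 95th percentile of all genes measured in that comparison and dotted lines mark 4-fold. Ache lies below the lower line in both SMC libraries, Chrm2 and Bche lie below it in both ICC libraries and in colonic PDGFRα+ cells, and Chrm3 lies above the upper line in colonic ICC alone; the jejunal Chrm2 and Bche points and the colonic Chrm3 point in SMCs lie near 0 and changed sign with scaling.

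Compared directly, JSMCs and jejunal ICC differed in 3 of 4 genes. Chrm2 and Bche were called higher in JSMCs, by 8.91-fold and 12.03-fold, against 2.42% of all genes, and Ache was called lower, by 17.2-fold, against 3.59%. In the colon the split was complete, with Chrm2 (27.0-fold) and Bche (17.8-fold) higher in CSMCs and Chrm3 (6.63-fold) and Ache (5.28-fold) lower than in ICC, against 2.57% and 4.5% of all genes. The receptor pair and the enzyme pair were thus each divided between the cell types, with Chrm2 and Bche on the SMC side in both organs. In the colon, median-ratio scaling within the colonic table brought the Chrm3 log2 ratio from -2.50 to -1.98. The Ache log2 ratio went from -2.09 to -1.60, so both came inside 4-fold. The jejunal Chrm3 log2 ratio of -0.63 had the colonic sign but did not reach 4-fold.

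Against colonic PDGFRα+ cells, CSMCs were called higher for Chrm2 (42.4-fold) and Bche (27.1-fold) and lower for 0 genes, against 3.63% higher and 5.43% lower of all genes. Chrm3 was 9.54-fold higher in CSMCs by level, but its log2 ratio of 1.95 after adding 1 FPKM lay just inside the limit. It passed the limit with a pseudocount of 0.1 FPKM, at 3.02, and in TPM, at 2.55, where the added 1 also weighs less. Colonic ICC and colonic PDGFRα+ cells differed in 1 gene, Chrm3, which was 63.3-fold higher in ICC (log2 ratio 4.45), with a background of 2.44% higher and 2.08% lower. Chrm2 and Bche, low in both, had log2 ratios of 0.42 and 0.39. Of the 2 comparisons with the library labelled jejunal PDGFRα+ cells, JSMCs gave 1 call, an 11.99-fold lower Ache level (background 0.325% higher and 5.34% lower), and jejunal ICC gave 0 (1.99% and 3.97%). There too the calls moved with the processing, since a cutoff of 1 FPKM per variant brought the Chrm3 log2 ratios to 2.49 for JSMCs and 3.07 for jejunal ICC, and known transcripts alone brought the Bche log2 ratio of JSMCs to 2.38.

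The low Chrm2 and Bche levels of the interstitial libraries were set beside those of 7 SMC markers (Myh11, Acta2, Actg2, Cnn1, Des, Tagln and Smtn), all of them listed and none at 0. The summed marker level was 37783 FPKM in JSMCs, 58379 FPKM in CSMCs, 3294 FPKM in jejunal ICC, 2308 FPKM in colonic ICC and 2836 FPKM in colonic PDGFRα+ cells. In jejunal ICC the single markers stood at 6.61% to 10.0% of their JSMC level, and Chrm2 stood at 11.2% and Bche at 8.31%. In colonic ICC the markers stood at 2.70% to 10.9% of their CSMC level, with Chrm2 at 3.70% and Bche at 5.61%. In colonic PDGFRα+ cells the markers stood at 2.98% to 11.1%, Chrm2 at 2.36% and Bche at 3.68%. The residual Chrm2 and Bche levels of these libraries lay at or close to the range of the SMC markers, and the part of muscle RNA in them was not tested.

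Chrm3 and Ache lay far outside that range. In jejunal ICC they stood at 165% and 1718% of the JSMC level, and in colonic ICC at 663% and 528% of the CSMC level. In colonic PDGFRα+ cells Ache stood at 164% of the CSMC level and Chrm3 at 10.5%, inside the range of the markers. Conversely, the 5 ICC markers (Kit, Ano1, Etv1, Prkcq and Thbs4) stood at 0.685% to 1.82% of their ICC level in JSMCs and 0.352% to 1.76% in CSMCs, whereas Chrm3 stood at 60.5% and 15.1%. Their sum stood at 16.8 FPKM in JSMCs and at 14.1 FPKM in CSMCs, against 1870 and 2442 FPKM in ICC, with no marker at 0. In colonic PDGFRα+ cells, where the ICC markers stood at 0.625% to 5.91%, Chrm3 stood at 1.58% of its ICC level.

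**Figure D3:**
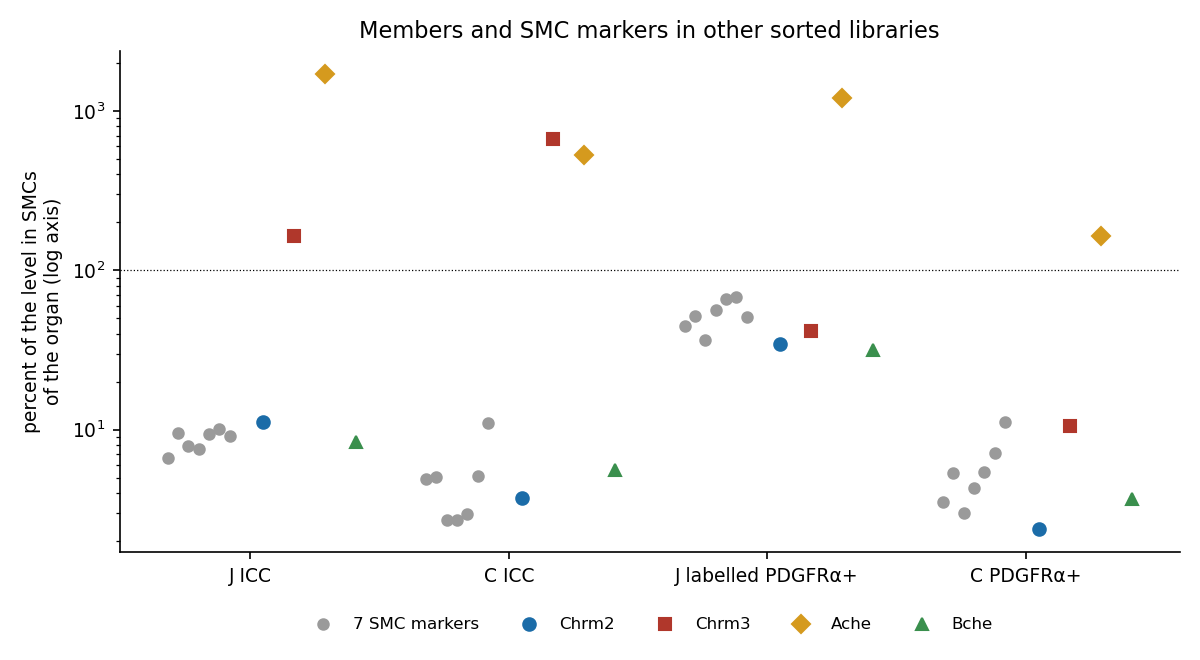
Level in each interstitial library as a percent of the level in SMCs of the same organ (vertical log axis), for the 7 SMC markers (grey points) and the 4 genes (coloured symbols), 1 library per column; the dotted line marks 100%. Chrm2 and Bche lie with or next to the grey points in every column, at 2.36% to 11.2% outside the library labelled jejunal PDGFRα+ cells, while Ache lies above 100% throughout and Chrm3 above 100% in both ICC libraries.

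Colon and jejunum were compared within each cell type across tables that the authors processed separately. Between the SM tissues 0 of 4 genes were called (0.616% of all genes higher in colon and 0.257% lower), with log2 ratios of -1.33 for Chrm2, 0.87 for Chrm3, 0.48 for Ache and -0.99 for Bche. Between CSMCs and JSMCs 0 of 4 were called (0.556% and 0.442%). The log2 ratio was -0.91 for Chrm2, -0.66 for Bche and 0.26 for Ache, and the Chrm3 log2 ratio of -0.10 turned to 0.05 under median-ratio scaling. Between the ICC, 1 gene was called, Chrm2, 5.74-fold lower in colonic ICC (2.26% of all genes higher and 1.78% lower). Chrm3 had a log2 ratio of 1.77 between the ICC libraries, and Ache one of -1.30. Colonic PDGFRα+ cells and the library labelled jejunal PDGFRα+ cells differed in 3 genes, all lower in the colon, against 1.85% higher and 5.2% lower of all genes. They were Chrm2, Ache and Bche, with log2 ratios of -4.07, -2.31 and -3.08.

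In the mucosa, 3 of the 4 genes passed the minimum of 1 FPKM in at least 1 library of the pair, Chrm2 being under it. Of these 3, 0 were called between mucosal PDGFRα+ cells and whole mucosa, where 5.5% of all genes were called higher and 1.64% lower. The log2 ratios were -0.95 for Chrm3, 0.09 for Ache and -1.66 for Bche. Chrm3 came to -2.21 with a pseudocount of 0.1 FPKM and to 0 with a cutoff of 1 FPKM per variant, which brought Bche to -2.85. Mucosal and muscle-layer PDGFRα+ cells of the colon were within 4-fold for the 3 genes measured in that pair (6.34% higher and 3.11% lower), with log2 ratios of -1.29 for Chrm2, -1.19 for Ache and -0.10 for Bche. Chrm2 was listed at 0 in the mucosal cells, for which its known transcript was not listed. With that 0, the Chrm2 ratio depends on the weight of the added level. It became -2.34 in TPM, where the added 1 weighs less, and -3.95 with a pseudocount of 0.1 FPKM. Chrm3 was under the minimum in both, at 0.208 and 0.502 FPKM.

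The tables divide each gene into assembled transcript variants, either known (identical in structure to an annotated transcript) or sharing a splice junction with one. Chrm2, on chromosome 6 at 36283137 to 36480595 in mm9, had 10 variants from 9 start sites, of which 1, TCONS_00226193 of 6920 bases, was known. This transcript made up 27.9% of the gene level in JSMCs and 28.6% in CSMCs. TCONS_00226192 led in both SM tissues, with 43.5% in the jejunum and 32.7% in the colon, and made up 10.0% in CSMCs, where TCONS_00239898 led with 37.1%. In JSMCs TCONS_00226192 made up 27.2%, just under the known transcript. The leading Chrm2 variant thus differed between tissue and SMCs in both organs, narrowly so in JSMCs. In the colon the summed levels of tissue and SMCs were 1.31-fold apart. The gene's span overlaps a long noncoding RNA on the other strand (9330158H04Rik) and contains the microRNA gene Mir490, and no strand-specific preparation is stated for the libraries, so reads of both strands cannot be told apart there.

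Chrm3, on chromosome 13 at 9874649 to 10360906, had 6 variants from 6 start sites. The known variant, TCONS_00068309 of 4671 bases, made up 57.7% of the level in JSMCs, 60.3% in CSMCs, 57.4% in jejunal ICC and 48.1% in colonic ICC. A second variant, TCONS_00068308, reached 5.83 FPKM in colonic ICC and at most 0.575 FPKM in every other library. The high Chrm3 level of colonic ICC was carried by the known transcript as well, at 15.3 FPKM with colonic SM tissue at 2.80 FPKM. Bche, on chromosome 3 at 73439730 to 73512337 on the minus strand, had 2 variants. Its known variant TCONS_00171811 of 6209 bases made up 74.5% of the level in JSMCs and 73.8% in CSMCs. The share was 46.3% in jejunal ICC and 51.5% in colonic ICC, on gene levels of 5.19 and 2.20 FPKM, and 75.3% in colonic PDGFRα+ cells.

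**Figure D4:**
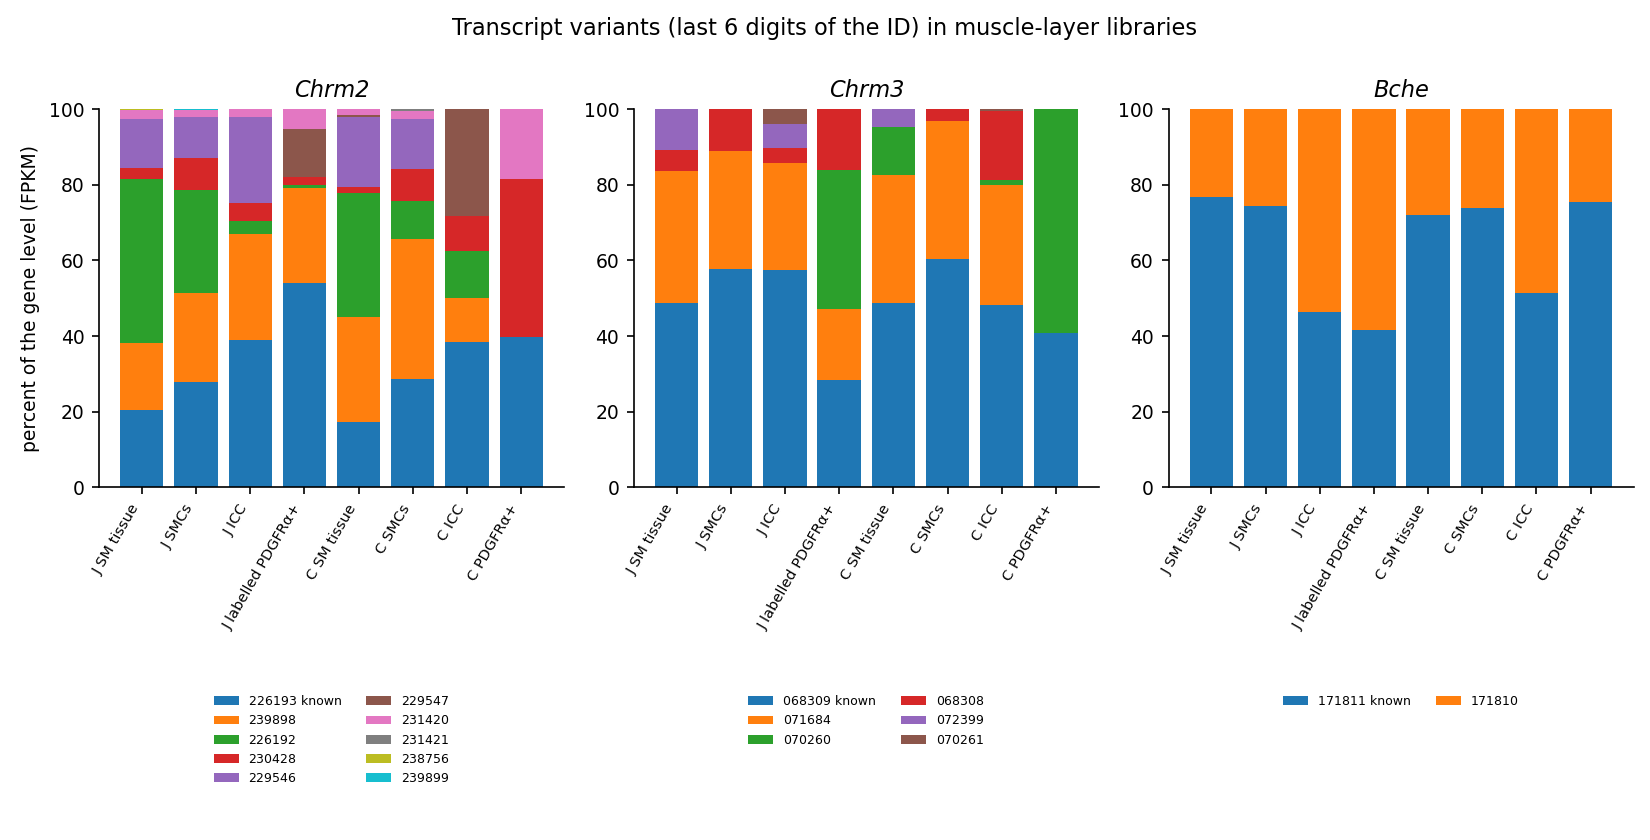
Share of the gene level (percent of FPKM, vertical axis) carried by each transcript variant of Chrm2, Chrm3 and Bche in the 8 muscle-layer libraries, 1 library per bar; colours are variants, named by the last 6 digits of their identifier, and blue at the base is the known transcript. TCONS_00226192 of Chrm2 is wide in both SM tissues (43.5% and 32.7%) and narrow in CSMCs (10.0%), and the known Bche variant is narrower in both ICC libraries (46.3% and 51.5%) than in SMCs.

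Ache, on chromosome 5 at 137729496 to 137749899, had 3 variants from 1 start site. The known variant, TCONS_00206021 of 2183 bases, stood at 20.5 FPKM in jejunal SM tissue, 1.42 FPKM in JSMCs, 40.7 FPKM in jejunal ICC and 29.2 FPKM in the library labelled jejunal PDGFRα+ cells. In the colon it stood at 28.9 FPKM in SM tissue, 2.14 FPKM in CSMCs, 14.4 FPKM in ICC and 3.38 FPKM in PDGFRα+ cells. The other variants, TCONS_00211721 and TCONS_00225430, were 15030 and 16498 bases long. The locus spans 20404 bases, of which 11971 belong to Srrt, a gene for an RNA-processing protein on the opposite strand, and 8433 lie outside it. The long variants must therefore lie over Srrt for at least 6597 and 8065 bases. The locus also holds Ufsp1, a gene of 996 bases between Ache and Srrt on the strand of Ache.

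The summed level of the long variants was low, from 0.498 FPKM in the library labelled jejunal PDGFRα+ cells to 2.35 FPKM in colonic ICC. It made up 2.93% of the Ache level in jejunal SM tissue and 4.39% in jejunal ICC, but 42.9% in JSMCs, 32.3% in CSMCs and 34.9% in colonic PDGFRα+ cells. In the mucosal table the known variant was not listed, and 100% of the Ache level in both mucosal libraries came from the long variants. Across the 10 libraries the long variants followed Srrt with a Pearson r of 0.87 on log2 levels (0.89 over 9 libraries, without the library labelled jejunal PDGFRα+ cells). The known variant and Srrt had r = 0.03 over 8 libraries (0.14 over 7). These coefficients are descriptions over points that share 3 tables and a locus. Reads from Srrt and from the antisense stretch of the long Ache variants cannot be told apart without strand. With the known variant alone, the Ache log2 ratios to tissue were -3.15 in JSMCs, -3.25 in CSMCs and -2.77 in colonic PDGFRα+ cells, all still called.

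**Figure D5:**
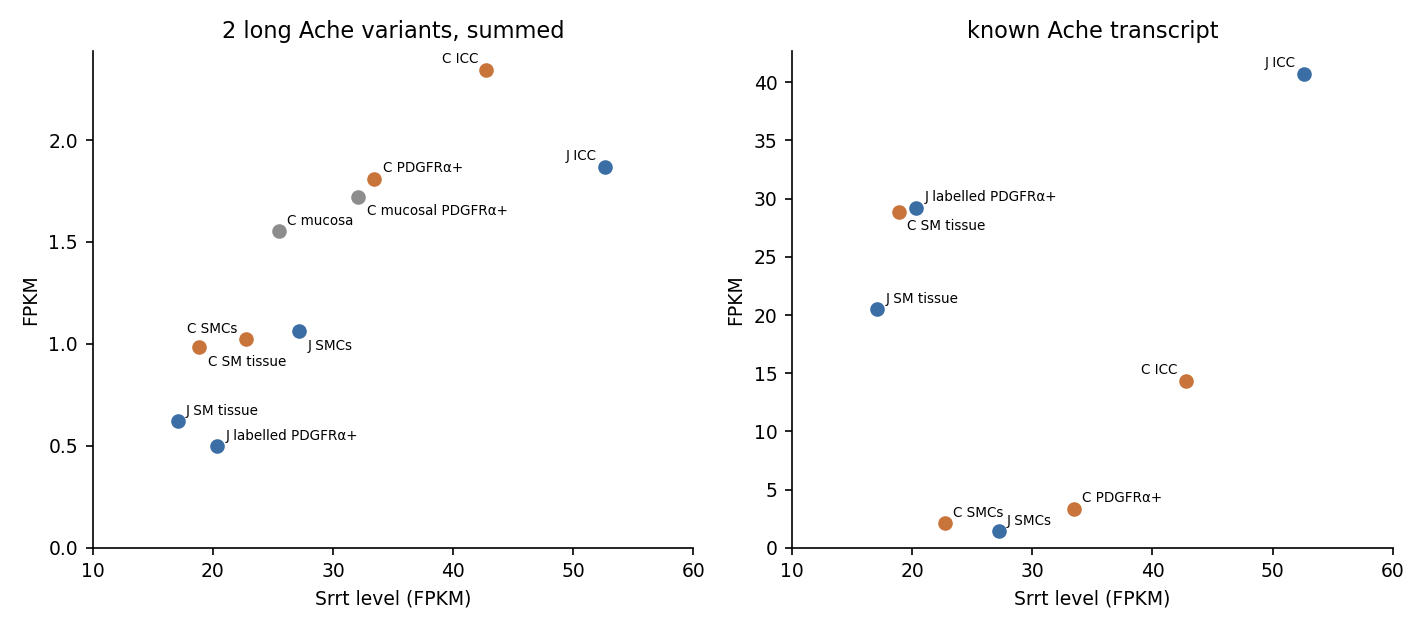
Level of the 2 long Ache variants, summed (left), and of the known Ache transcript (right), in FPKM on the vertical axis, against the Srrt level in FPKM on the horizontal axis, which starts at 10; each point is 1 library, and the right plot has the 8 muscle-layer libraries. The long variants climb with Srrt (r = 0.87 on log2 levels), while the known transcript spreads without such an order (r = 0.03).

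The genes with the most similar pattern were found among 8957 genes, by Pearson r of log2(FPKM + 1) over the 10 libraries, whose points share tables, strains and the amount of muscle RNA. For Chrm2 they were Tmem90b (0.991), Hspb6, a small heat shock protein (0.987), A430105I19Rik (0.986), Cap2, an actin regulator (0.983), and Sh3bgr (0.983). For Bche they were Ldb3, a Z-disc protein of striated muscle (0.996), Slc16a7, a monocarboxylate transporter (0.983), Pygb, a glycogen phosphorylase (0.981), Mfn2, a mitochondrial fusion protein (0.980), and Kcnf1, a potassium channel subunit (0.975). For Ache they were 2510003E04Rik (0.974), Neurl1a (0.962), Mapk10, a stress kinase (0.962), Cend1 (0.960) and Aatk (0.952). Chrm3 had the loosest matches, led by Triobp, an actin-binding protein (0.916), Itga8, an integrin subunit (0.916), Btbd10 (0.913) and the histone gene Hist2h2be (0.905). Among the 4 genes themselves, Chrm2 and Bche had r = 0.93 (0.93 over 9 libraries), and the other 5 pairs ran from 0.15 for Ache and Bche to 0.48 for Chrm3 and Ache.

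The other muscarinic receptors were low in SMCs but not in every library. Chrm1 ranged from 0.0992 to 3.30 FPKM and Chrm4 from 0.126 to 3.91 FPKM, and Chrm5 did not exceed 0.0485 FPKM. In JSMCs Chrm1 stood at 0.154 FPKM and Chrm4 at 0.283 FPKM, with jejunal SM tissue at 2.54 and 2.92 FPKM. Each of these 3 receptors stood at or below 0.432 FPKM in both SMC libraries. In jejunal SM tissue Chrm4 stood beside 2.68 FPKM of Chrm3, and in the library labelled jejunal PDGFRα+ cells it stood at 3.38 FPKM beside 2.15 FPKM of Chrm3. In whole mucosa Chrm1, at 2.41 FPKM, exceeded both Chrm3 and Chrm2.

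Genes that make and store acetylcholine were followed as a list of 3. Slc5a7, the choline transporter, and Slc18a3, the vesicular acetylcholine transporter, were called lower than in tissue in both JSMCs and CSMCs, and Chat, the synthetic enzyme, had levels of 0.116 and 0.230 FPKM there. Of 16 nicotinic receptor subunits, 6 were measured in JSMCs with 2 lower and 7 in CSMCs with 3 lower, Chrna3 and Chrnb4 in both organs, beside 3.48% and 5.3% of all genes lower. Chrna3 and Chrnb4 encode subunits of the ganglionic receptor, and Chrna3 stood at 20.8 FPKM in jejunal SM tissue and 1.23 FPKM in JSMCs.

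The 2 cholinesterase anchors were highest in different colonic libraries, Prima1 in CSMCs and Colq in PDGFRα+ cells. Prima1, which tethers acetylcholinesterase to membranes, stood at 6.56 FPKM in JSMCs and at 1.85 FPKM in jejunal ICC, and at 10.8 FPKM in CSMCs and 1.43 FPKM in colonic ICC, the colonic pair past 4-fold. Its tissue levels were 7.26 FPKM in the jejunum and 8.94 FPKM in the colon. The library labelled jejunal PDGFRα+ cells held 6.39 FPKM of Prima1. Colq, the collagen-like tail that anchors the enzyme in the extracellular matrix, stood at 50.8 FPKM in colonic PDGFRα+ cells and 4.64 FPKM in colonic SM tissue, a 10.9-fold difference. Its level was 0.561 FPKM in JSMCs, 1.95 FPKM in CSMCs and 2.42 FPKM in colonic ICC. The library labelled jejunal PDGFRα+ cells held 5.66 FPKM of Colq, and mucosal PDGFRα+ cells held 2.60 FPKM.

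On the receptor signalling side, 0 of 6 measured Gq-class and phospholipase C genes were called in JSMCs or CSMCs against tissue. Of the Gi class and adenylyl cyclases, 0 of 13 measured genes were called in JSMCs and 0 of 12 in CSMCs. The median log2 ratios of these lists were -0.19 and -0.45 in JSMCs, beside -0.15 for all genes, and -0.18 and -0.35 in CSMCs, beside -0.32 for all genes. Plcb4, a phospholipase C that Gq activates, differed between the organs in relation to ICC, standing at 26.0 FPKM in JSMCs and at 3.26 FPKM in jejunal ICC but at 28.2 FPKM in CSMCs and 166 FPKM in colonic ICC, the library where Chrm3 was also highest. Adcy5, an adenylyl cyclase that Gi inhibits, stood at 126 FPKM in JSMCs and at 10.4 FPKM in jejunal ICC, and at 108 FPKM in CSMCs and 19.6 FPKM in colonic ICC. Of 12 measured genes of the Gi list, Adcy5 and Adcy7 were called higher in JSMCs than in ICC, and Adcy5 alone in CSMCs. In the Gq list Plcb4 was the only call, of 7 measured in the jejunum and 6 in the colon. The backgrounds were 2.42% higher and 3.59% lower in the jejunum, and 2.57% and 4.5% in the colon. Adcy5 thus had the direction of Chrm2 in both organs, while Plcb4 and Chrm3 went opposite ways in the jejunum.

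The genes further downstream were counted against the same backgrounds, 0.297% higher and 3.48% lower for JSMCs and 0.149% and 5.3% for CSMCs against tissue, and 2.42% and 3.59% for JSMCs and 2.57% and 4.5% for CSMCs against ICC. Of 14 calcium sensitisation genes, 0 were called against tissue in either organ, and 2, Mylk (myosin light chain kinase) and Ppp1r12a (the myosin phosphatase targeting subunit), were called higher in SMCs than in ICC in both. Of the release channels, Ryr2 and Ryr3 were higher in JSMCs than in jejunal ICC and Ryr3 in CSMCs than in colonic ICC, of 4 and 5 measured. Itpr3, an inositol trisphosphate receptor, was the 1 release channel of 5 called lower than in tissue in both organs, at 0.915 FPKM in JSMCs with 8.98 FPKM in jejunal SM tissue, and 0.767 FPKM in CSMCs with 7.81 FPKM in colonic SM tissue. Of the receptor and chloride channels, Ano1, a chloride channel that calcium opens and ICC depend on, was lower in SMCs than in ICC and than in SM tissue in both organs, and the receptor-operated channel Trpc4 stood at 16.0 FPKM in JSMCs and at 3.97 FPKM in CSMCs. Of the RGS proteins, which switch off G proteins, Rgs1, Rgs2 and Rgs4 were higher in SMCs than in ICC and Rgs10 lower in both organs, of 8 and 9 measured. Of 7 receptor kinases and arrestins, 0 were called in that comparison in either organ. Against tissue 0 were called in JSMCs and 1, Adrbk2, was lower in CSMCs, at 1.69 FPKM with 17.4 FPKM in colonic SM tissue.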

How the data were processed

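The authors sequenced the libraries on an Illumina HiSeq instrument, mapped them against mm9 (TopHat 1.4.1), built transcripts from the alignments (Cufflinks 2.0.2) and deposited the level of each transcript variant in FPKM, in separate tables for jejunum, colon and mucosa. The tables hold variants of class code = (known) or j (sharing a splice junction). Cuffdiff is also named in the submitters' processing notes. FPKM values carry no read counts, so no counting interval is given. The study states a range of read totals for its SMC and SM tissue libraries, and the depth of the other libraries is unknown here.

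FPKM under 0.025 per variant were set to 0, the cutoff stated in the study's methods, and variants of a gene symbol were summed. Ratios are log2(FPKM + 1) differences over genes reaching 1 FPKM in either library of a pair, called at 4-fold. With 1 library per condition no test was run. Named genes were the 4 members, genes of the cholinergic lists reaching 10 FPKM in at least 1 library, the other muscarinic receptors, the cholinesterase anchors, and the 5 genes most like each member. 1 gene among those most like Chrm3 is not reported here. Other list genes named for a call or a low level were chosen after their values were seen. Members and lists were chosen with earlier results of these data known. Alternatives were other cutoffs, filters and pseudocounts, TPM, median-ratio scaling and known transcripts alone; those for ratios between sorted cell types of an organ and between mucosal libraries were added after seeing the data. Python 3.11.15, numpy 2.4.6 and pandas 2.3.3 were used.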

Additional observations from a re-analysis of the deposited data

Results flagged for a closer look

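Some ratios to SM tissue had opposite signs in the 2 organs, with 1 library on each side, and the difference between organs was not tested for any of them. The Chrm2 log2 ratio of SMCs to SM tissue was -0.037 in the jejunum and 0.38 in the colon. The Chrm3 log2 ratio of SMCs to SM tissue was 0.75 in the jejunum and -0.22 in the colon. The jejunal Chrm2 value and the colonic Chrm3 value both changed sign with scaling.

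The Ache log2 ratio of ICC to SM tissue was 0.98 in the jejunum and -0.80 in the colon, neither reaching 4-fold. The Ache log2 ratio to SM tissue was 0.47 in the library labelled jejunal PDGFRα+ cells and -2.32 in colonic PDGFRα+ cells. The former library held less Pdgfra than its tissue and neuron markers at tissue level, so its cell type cannot be told from its label.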

How the results depend on the processing

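No paired analysis was possible because each condition has 1 library and the labels give no replicate numbers, and for the same reason no replicate could be left out. Of 70 log2 ratios of the 4 genes, 26 were called. Across 363 alternative values 6 turned to the other sign, all for ratios of at most 0.22 in size, and 4 came to 0. Of 144 alternative values of called ratios 0 changed sign and 3 fell inside 4-fold. One was Chrm3 in colonic PDGFRα+ cells against tissue with the known transcript (-1.66). The others were Chrm3 (-1.98) and Ache (-1.60) in CSMCs against colonic ICC under median-ratio scaling within the colonic table. The values that moved by more than 1.5-fold follow, and the cause was not tested. In the TPM values the added 1 weighs less than 1 FPKM, as it does with the smaller pseudocount. Known transcripts alone gave Chrm2 log2 ratios to tissue of -2.06 in jejunal ICC, -0.16 in the library labelled jejunal PDGFRα+ cells, 1.03 in CSMCs, -2.27 in colonic ICC and -2.52 in colonic PDGFRα+ cells, and a Bche ratio of -2.29 in the library labelled jejunal PDGFRα+ cells, which brought its count of called genes from 0 to 1. A cutoff of 1 FPKM per variant gave -1.20 for Chrm3 in that library and -5.52 for Chrm2 in both colonic ICC and colonic PDGFRα+ cells. In colonic PDGFRα+ cells a pseudocount of 0.1 FPKM gave -4.92 for Chrm2, -3.28 for Chrm3 and -4.21 for Bche, and TPM gave -2.94 for Chrm3. Between colonic PDGFRα+ cells and the library labelled jejunal PDGFRα+ cells, that pseudocount gave -4.70 for Chrm2, -1.90 for Chrm3 and -3.68 for Bche. The alternatives for ratios between sorted cell types and in the mucosa were chosen after seeing the data. Known transcripts alone gave Chrm2 ratios of 2.46 for JSMCs to jejunal ICC, 0.56 for JSMCs to the library labelled jejunal PDGFRα+ cells, 3.30 for CSMCs to ICC and 3.55 for CSMCs to PDGFRα+ cells, a Bche ratio of 2.38 for JSMCs to the labelled library and a Chrm3 ratio of 3.76 for colonic ICC to PDGFRα+ cells. The 1 FPKM cutoff gave Chrm3 ratios to the labelled library of 2.49 in JSMCs and 3.07 in jejunal ICC, a Chrm2 ratio of CSMCs of 5.95 both to colonic ICC and to colonic PDGFRα+ cells, and ratios of mucosal PDGFRα+ cells to whole mucosa of 0.0 for Chrm3 and -2.85 for Bche. The pseudocount of 0.1 FPKM gave ratios of CSMCs to colonic PDGFRα+ cells of 5.31 for Chrm2, 3.02 for Chrm3 and 4.67 for Bche, a Chrm3 ratio of 5.73 for colonic ICC to PDGFRα+ cells, one of -2.21 for mucosal PDGFRα+ cells to whole mucosa, and a Chrm2 ratio of -3.95 for mucosal to muscle-layer PDGFRα+ cells. TPM gave Chrm3 ratios to colonic PDGFRα+ cells of 2.55 in CSMCs and 5.42 in ICC, and a Chrm2 ratio of -2.34 for mucosal to muscle-layer PDGFRα+ cells. Of the 5 genes most like each member, a ranking by Spearman rho shared 1 for Chrm2, 1 for Chrm3, 2 for Ache and 3 for Bche, and leaving out the library labelled jejunal PDGFRα+ cells shared 4 for Chrm2 and 3 each for Chrm3, Ache and Bche. The lack of read counts limits most the levels near or below 1 FPKM.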

Other observations

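Chrnb1, the beta subunit of the muscle-type nicotinic receptor, stood at 105 FPKM in colonic ICC, 56.4 FPKM in colonic PDGFRα+ cells and 32.2 FPKM in mucosal PDGFRα+ cells. The same gene stood at 8.65 FPKM in jejunal ICC, 10.6 FPKM in colonic SM tissue, 2.53 FPKM in JSMCs and 2.51 FPKM in CSMCs. Chrna6, another nicotinic subunit, reached 17.2 FPKM in colonic ICC, against 0.293 FPKM in jejunal ICC and 0.0958 FPKM in CSMCs, and was listed at 0 in JSMCs and jejunal SM tissue. Chrna4 stood at 5.15 FPKM in colonic PDGFRα+ cells and at most 2.17 FPKM in the other muscle-layer libraries. Gna14, a Gq-class alpha subunit, stood at 26.2 FPKM in colonic PDGFRα+ cells, 22.4 FPKM in whole mucosa, 7.36 FPKM in CSMCs and 5.14 FPKM in colonic SM tissue. Each of these values rests on 1 library.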
